A study of Mus musculus with 24 samples.

Results

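The transforming growth factor beta (TGF-beta) signalling core was followed through 24 RNA-seq libraries of mouse intrahepatic cholangiocytes, the epithelial cells that line the bile ducts inside the liver. It comprises 10 genes, taken by name out of the 49315 gene identifiers in each count table: the ligands Tgfb1, Tgfb2 and Tgfb3, the receptors Tgfbr1, Tgfbr2 and Tgfbr3, and the intracellular mediators Smad2, Smad3, Smad4 and Smad7. TGF-beta ligands are secreted in a latent form, held in the matrix by latent TGF-beta binding proteins and released by integrins or proteases. The freed ligand binds the type II receptor (Tgfbr2), which activates the type I receptor (Tgfbr1), and the type I receptor phosphorylates Smad2 and Smad3, which enter the nucleus with Smad4. Tgfbr3 (betaglycan) presents ligand to the type II receptor, and Smad7 is induced by the pathway and shuts off the type I receptor. In the liver the pathway is best known for driving collagen synthesis by stellate cells and portal fibroblasts.

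The study asked what secretin, a gut hormone whose receptor in the liver is found on cholangiocytes, does in wild-type mice and in a mouse model of primary biliary cholangitis. Each sex had 4 groups of 3 libraries: dnTGFB mice given secretin, untreated dnTGFB mice, wild-type (WT) mice given secretin, and untreated WT mice. Treated mice received secretin at 4 µg per kg per day for 8 weeks from implanted minipumps and were killed at 40 weeks of age. Untreated WT mice were killed at 32 weeks, so that age and treatment cannot be told apart in WT, and for untreated dnTGFB mice no age was found in the sources used here. The dnTGFB mice (dnTGFBRII in the design text) carry a dominant-negative TGF-beta type II receptor. In the strain of that name the transgene is a truncated human receptor under the Cd4 promoter, which acts in T cells; the labels name no promoter. Counts per gene do not separate transgene from endogenous reads, so Tgfbr2 does not check the genotype. Genotype and treatment were taken from the titles, because 12 of the 24 libraries carry a separate genotype label that contradicts their title. The sources used here describe each group as a pool of cells from 6 to 8 mice, whose RNA was sequenced 3 times. By that account the p-values below measure the spread between libraries of 1 pool per group, which may be technical, and not the spread between mice. Some groups, however, held libraries too unlike to be repeats of 1 RNA, as given below. The cells had been captured from liver with an antibody on magnetic beads.

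Library totals ran from 15225605 to 30203330 counts in 11 male libraries and from 6483182 to 104003184 counts in the 12 female ones, while male dnTGFB library 3 held 1429218 counts. Marker sums, Xist and Ddx3y are given throughout in CPM (counts scaled to a common library size) of library totals. Of 13 cholangiocyte markers 11 were detected in all 24 libraries, and Cftr and Onecut1 in 23, but their summed level ran from 124.9 to 8756.6 CPM. It was 8614.8 to 8756.6 CPM in male dnTGFB secretin, 945.0 to 1029.9 in male dnTGFB, 3592.1 to 3638.9 in male WT secretin and 2181.1 to 5245.3 CPM in male WT libraries, and 124.9 and 289.7 CPM in female WT secretin libraries 2 and 3. By a chi-square distance on thinned counts, 10 of 12 male libraries but only 6 of 12 female libraries had a library of their own group as nearest neighbour. Male WT library 1 had 42.75% mitochondrially encoded counts, against 9.73% and 9.75% in the other male WT libraries, and its nearest library was male dnTGFB 2. That share was 55.07% and 55.03% in male dnTGFB libraries 1 and 2, 11.44% in library 3, and 5.31 to 5.66% in male dnTGFB secretin libraries. The part of mitochondrial and cholangiocyte RNA in the comparisons with male dnTGFB below was not tested. Male dnTGFB library 3 held 16226.4 CPM summed over 10 heart muscle markers and 9626.9 CPM over 10 neuron markers. In 4 female libraries (WT secretin 2 and 3, dnTGFB 1 and 2) the heart muscle markers reached 54034.9 to 62066.8 CPM, and 414.4 to 2728.0 CPM in the remaining 8. The same 4 libraries, labelled female, held 46.79 to 64.31 CPM of Ddx3y, a Y-linked gene, against 1.36 to 6.02 CPM in the remaining 8, and 12.68 to 74.69 CPM of Xist, the RNA of the inactive X chromosome, against 37.79 to 434.68 CPM, so that they carried Y-linked RNA against their label. Those 6 libraries are called the libraries that stand apart. Female WT library 2 and female dnTGFB secretin library 1 differed from each other by 1.14 chi-square units per gene, against 10.48 and 28.79 from their own groups. Results are given with and without the libraries that stand apart, for the female pairwise comparisons in a figure. The near-identical pair was left out too in the female interaction and the differences between the sexes.

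The sequences immediately before the transcription starts of 4 members are shown because some of their levels moved together and others did not. Over the 24 libraries, log2 CPM of Tgfb2 and Tgfbr1 had a Pearson r of 0.88, Tgfb1 and Tgfbr2 0.75, Tgfbr1 and Tgfbr2 0.70, Tgfb2 and Tgfbr2 0.59, Tgfb1 and Tgfbr1 0.27, and Tgfb1 and Tgfb2 -0.02, values that share library depth and composition and are given as description. Each line holds the 250 bases 5′ of a RefSeq start (GRCm38.p6), written along the gene's strand, with GC boxes (GGGCGG or CCGCCC) and TATA boxes (TATAAA or TTTATA) in capitals.
Tgfb1, chr7:25686752-25687001, plus strand: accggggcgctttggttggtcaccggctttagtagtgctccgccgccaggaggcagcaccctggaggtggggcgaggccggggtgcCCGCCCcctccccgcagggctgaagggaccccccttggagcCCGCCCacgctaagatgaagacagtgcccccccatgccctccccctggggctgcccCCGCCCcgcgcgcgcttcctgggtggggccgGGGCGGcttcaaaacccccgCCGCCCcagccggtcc
Tgfb2, chr1:186705990-186706239, minus strand: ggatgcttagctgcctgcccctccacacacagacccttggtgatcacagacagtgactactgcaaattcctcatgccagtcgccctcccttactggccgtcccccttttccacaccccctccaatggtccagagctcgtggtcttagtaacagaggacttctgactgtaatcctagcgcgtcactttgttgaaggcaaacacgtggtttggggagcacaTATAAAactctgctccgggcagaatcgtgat
Tgfbr1, chr4:47352972-47353221, plus strand: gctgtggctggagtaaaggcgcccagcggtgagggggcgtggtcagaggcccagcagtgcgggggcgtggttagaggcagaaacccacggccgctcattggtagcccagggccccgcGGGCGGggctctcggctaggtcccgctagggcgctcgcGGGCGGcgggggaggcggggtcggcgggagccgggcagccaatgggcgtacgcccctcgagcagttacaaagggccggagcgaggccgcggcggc
Tgfbr2, chr9:116175364-116175613, minus strand: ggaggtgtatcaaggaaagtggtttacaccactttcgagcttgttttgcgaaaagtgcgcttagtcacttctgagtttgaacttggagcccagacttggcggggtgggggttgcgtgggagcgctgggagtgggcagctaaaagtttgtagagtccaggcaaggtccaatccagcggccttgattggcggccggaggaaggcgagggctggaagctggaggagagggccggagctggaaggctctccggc
The Tgfb1 window was 75.2% G and C and held 5 GC boxes, that of Tgfbr1 was 74.8% and held 2, that of Tgfb2 was 53.6% and held a TATA box and no GC box, and that of Tgfbr2 was 58.4% and held neither. Among 32851 promoters of the same length, 32.7% held a GC box and 12.4% a TATA box on either strand, and the median share of G and C was 52.4%. The Smad element CAGACA (or TGTCTG), found in 17.1% of promoters, occurred once in the Tgfb2 window and not in the others shown. A match is a string of letters, not a known binding site. RefSeq starts matched 5 of the 10 members, and Tgfb3 and Tgfbr3 are not shown. Left out too are a second Tgfbr1 window (chr4:47385966-47386215, 52.8% G and C, no GC box, 1 Smad element) and that of Smad3 (69.2%, 2 GC boxes).

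In GRCm38 coordinates the protein-coding members lie as follows: Tgfb1 at chr7:25687002-25705077 on the plus strand, Tgfb2 at chr1:186622792-186705989 on the minus strand, Tgfb3 at chr12:86056744-86079041 on the minus strand, Tgfbr1 at chr4:47353222-47414931 on the plus strand, Tgfbr2 at chr9:116084293-116175360 on the minus strand. The others are Tgfbr3 at chr5:107106570-107289629 on the minus strand, Smad2 at chr18:76241580-76305731 on the plus strand, Smad3 at chr9:63646767-63757994 on the minus strand, Smad4 at chr18:73639009-73703780 on the minus strand and Smad7 at chr18:75367529-75395935 on the plus strand.

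Levels between genes were compared as CPM scaled by the trimmed mean of M-values (TMM) and divided by exon length in kilobases. Tgfb1 was the most abundant member, with a median over the 8 group means of 23.46 CPM per kb, and it ranked first in 7 groups and second to Smad4 in female WT secretin libraries. Smad4 (14.28 CPM per kb), Tgfbr2 (12.82), Smad7 (12.3) and Tgfbr3 (10.02) followed, and their order changed from group to group. Smad2 (8.2 CPM per kb), Tgfb3 (6.34), Smad3 (6.28) and Tgfbr1 (4.24) were lower, and Tgfb2, at 2.33 CPM per kb, was the lowest member in all 8 groups. In male WT libraries, for example, Smad4 at 14.78 ± 0.81 and Tgfbr3 at 14.34 ± 0.59 CPM per kb did not differ beyond their spread, nor did Smad3 at 5.98 ± 0.52 and Tgfb3 at 5.87 ± 0.87 (SD, n = 3). All 10 members passed the filter on low counts in both sexes.

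**Figure D1:**
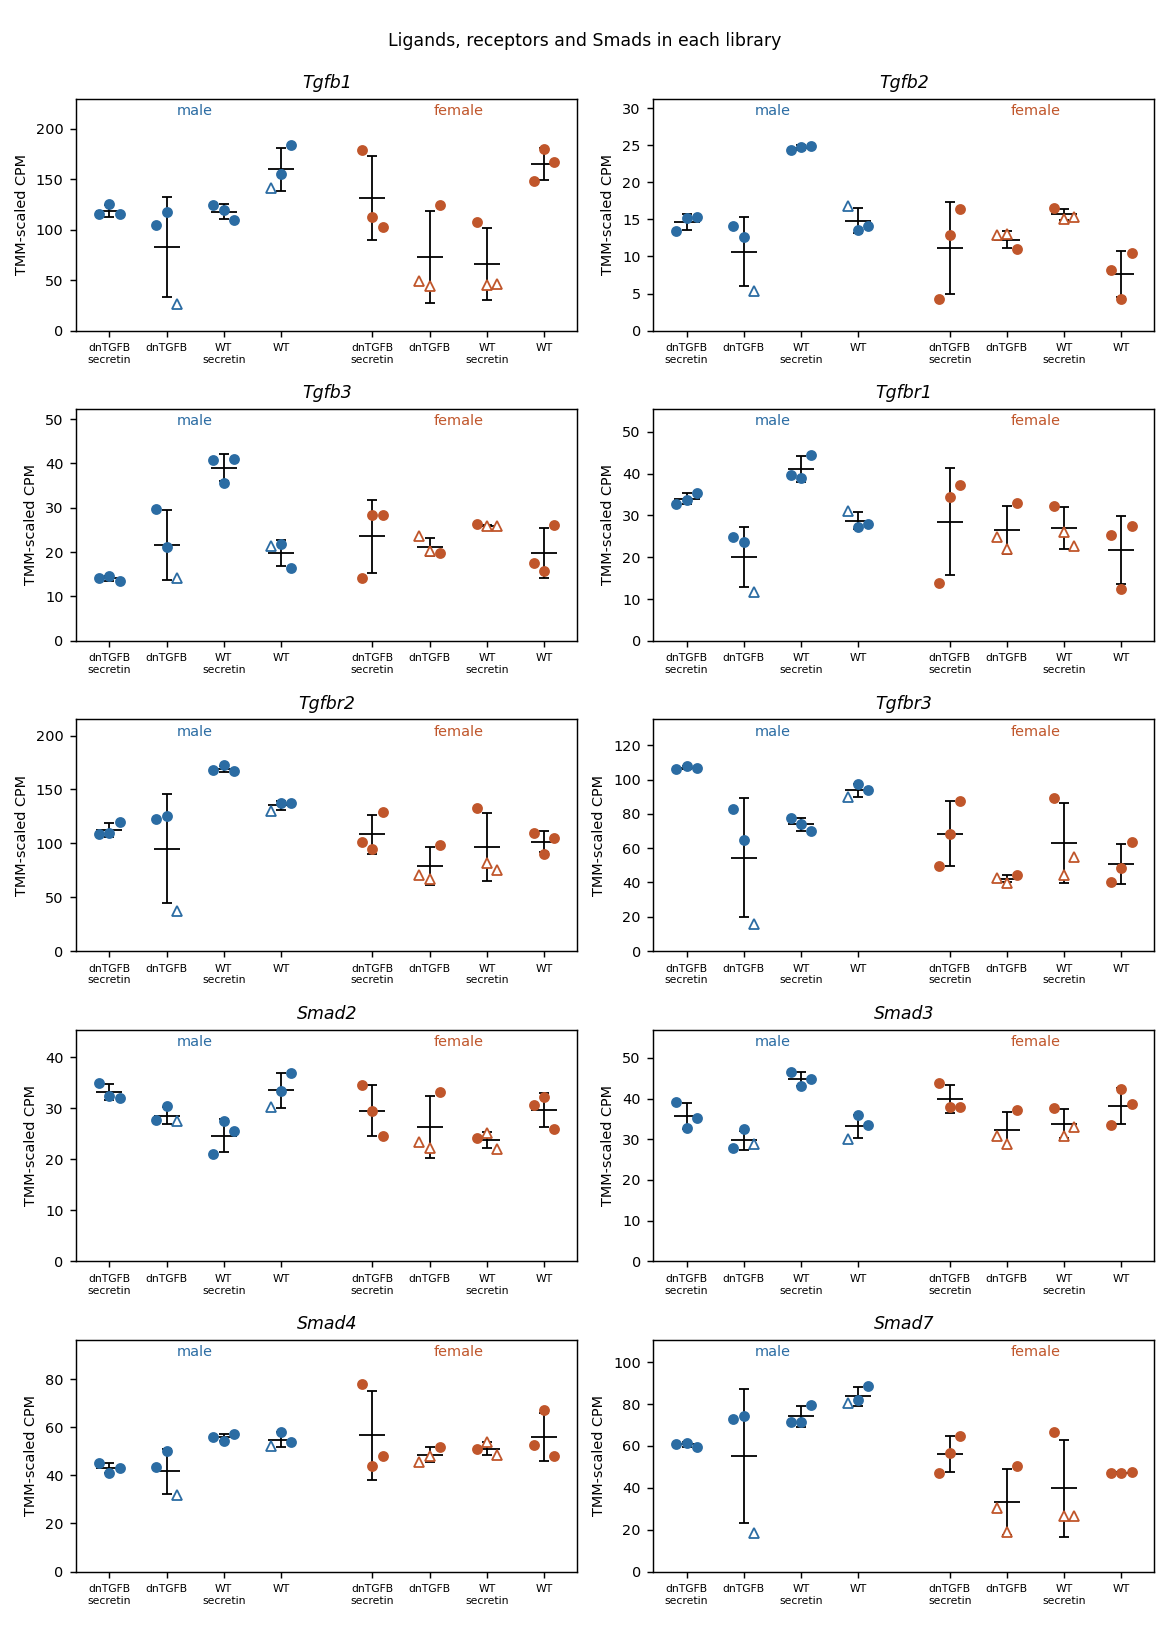
TMM-scaled CPM of each gene (y axis, from 0) in every library, with male groups in blue on the left and female groups in orange on the right. Points are libraries, horizontal bars with whiskers are the mean ± SD of 3 libraries, and open triangles mark the 6 libraries that stand apart; male dnTGFB library 3 is the lowest of its group for all but Smad3.

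Tgfb3, the ligand best known from palate and mammary epithelium, gave the clearest difference of the core in males. In male dnTGFB secretin libraries it was measured at 14.09, 14.68 and 13.46 TMM-scaled CPM, against 40.73, 35.53 and 40.89 CPM in male WT secretin libraries. Untreated male dnTGFB libraries had 29.77, 21.12 and 14.10 CPM, and untreated male WT libraries 21.39, 21.72 and 16.44 CPM. Secretin-treated WT libraries thus stood above all other male libraries, and secretin-treated dnTGFB libraries below all others except male dnTGFB library 3, with which they overlapped.

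In edgeR's quasi-likelihood test, adjusted by Benjamini-Hochberg over 18777 genes, Tgfb3 was lower in male dnTGFB secretin than in male WT secretin libraries (log2 fold change -1.47 ± 0.22 SE, adjusted p = 0.001729), and this call held under every alternative run. It was higher in male WT secretin than in male WT libraries (0.98 ± 0.22, adjusted p = 0.02342), a call that was lost on leaving out WT library 2 or 3 or any of the 6 secretin libraries (adjusted p 0.05171 to 0.1162) while the fold stayed between 0.86 and 1.05. The secretin by genotype interaction, which is the dnTGFB effect of secretin minus the WT effect, was -1.64 ± 0.31 (adjusted p = 0.007813), and -0.97 (adjusted p = 0.07916) when library totals replaced the TMM scaling. Within the dnTGFB genotype the difference was -0.66 ± 0.22 (adjusted p = 0.05178), and -0.84 ± 0.14 (adjusted p = 2.803e-05) without male WT library 1 and male dnTGFB library 3. The order of the dnTGFB means turned with the scaling. As CPM of library totals they were 17.54 in male dnTGFB secretin and 15.25 in male dnTGFB libraries, against 14.08 and 21.66 TMM-scaled CPM. Fewer cells of a type and less RNA per cell cannot be told apart in bulk libraries.

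Levels of other RNA differed between the same groups. The summed level of 12 stellate cell and fibroblast markers, all detected in every library, was 1964.8 to 1997.8 CPM in male dnTGFB secretin, 1309.6 to 1437.1 in male dnTGFB, 2776.2 to 2825.0 in male WT secretin and 1161.8 to 1271.2 CPM in male WT libraries. It was thus highest, like Tgfb3, in WT secretin, and higher with secretin in dnTGFB. On the same scale of library totals the Tgfb3 mean was also higher there (17.54 against 15.25 CPM). TMM-scaled Tgfb3 was lower (14.08 against 21.66 CPM). The protein-coding genes most like Tgfb3 over the 24 libraries were Col6a1 (r = 0.92), a chain of collagen VI, and Aebp1 (r = 0.91), a secreted collagen-binding protein. Male WT secretin libraries also carried 33.98 to 42.43 CPM of Xist, against 0.63 to 1.64 CPM in male WT libraries, while Ddx3y was at 77.63 to 81.79 CPM in male WT secretin and 84.13 to 101.38 CPM in male WT libraries. The part of stellate cells, fibroblasts or other RNA in the Tgfb3 differences was not tested. Ttll5, a gene on the opposite strand that overlaps Tgfb3, reached at most 16.93 CPM, and since strand use is not stated their reads cannot be fully told apart.

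Tgfb2, the least abundant ligand, followed the secretin-treated WT pattern of Tgfb3. Male WT secretin libraries had 24.35, 24.83 and 24.93 CPM, against 16.75, 13.58 and 14.14 CPM in male WT libraries. Male dnTGFB secretin libraries had 13.46, 15.19 and 15.26 CPM and male dnTGFB libraries 14.08, 12.60 and 5.29 CPM, the last from 9 counts. Male WT secretin libraries were thus above every other male library. With all libraries the difference did not pass (0.74 ± 0.24, adjusted p = 0.09598 against WT, and -0.76 ± 0.24, adjusted p = 0.05897 for dnTGFB secretin against WT secretin). Without the 2 male libraries that stand apart these values were 0.83 ± 0.12 (adjusted p = 3.294e-06) and -0.75 ± 0.10 (adjusted p = 1.33e-06). Top3b (r = 0.95) and Ptpn14 (r = 0.94) were the genes most like it.

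Tgfb1, the isoform best known from immune and inflamed tissue, had the opposite order to Tgfb3 in the WT groups. Male dnTGFB secretin libraries had 115.38, 125.04 and 115.35 CPM, and male dnTGFB libraries 105.02, 118.03 and 26.43 CPM. The male WT secretin group had 124.46, 119.59 and 109.80 CPM, and male WT libraries 141.74, 155.09 and 183.62 CPM. Male WT libraries were above all others, and the remaining groups overlapped. No difference was called with all libraries (dnTGFB against WT -0.92 ± 0.39, adjusted p = 0.1221; WT secretin against WT -0.44 ± 0.38, adjusted p = 0.5758). Leaving out the 2 male libraries gave -0.60 ± 0.08 (adjusted p = 1.494e-06) and -0.52 ± 0.07 (adjusted p = 2.136e-06), and a secretin difference within dnTGFB of 0.09 ± 0.07 (adjusted p = 0.3259). Endothelial markers, 8 genes detected in every library, summed to 4269.0 to 4321.7 CPM in male dnTGFB secretin, 793.4 to 1930.7 in male dnTGFB, 4023.0 to 4081.6 in male WT secretin and 3078.5 to 5978.1 CPM in male WT libraries. The genes most like Tgfb1 were Nostrin and Vat1 (r = 0.98 each), Nostrin being a regulator of endothelial nitric oxide synthase. On library totals, the scale of the marker sums, Tgfb1 was at 59.77, 67.04 and 31.49 CPM in male dnTGFB and 100.02, 176.95 and 207.4 CPM in male WT libraries. The part of endothelial RNA in the Tgfb1 differences was not tested.

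The make-up of the ligand pool differed accordingly. Per kb, Tgfb3 was 13.48 to 14.18% of the 3 ligands in male dnTGFB secretin libraries, 19.61 to 40.36% in male dnTGFB, 27.27 to 31.66% in male WT secretin and 11.11 to 16.94% in male WT libraries. Tgfb1 supplied 77.58 to 78.08% in male dnTGFB secretin, 50.79 to 73.55% in male dnTGFB, 57.06 to 61.6% in male WT secretin and 75.31 to 83.3% in male WT libraries. A share falls when another ligand rises, so these shares are not independent of the values above.

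**Figure D2:**
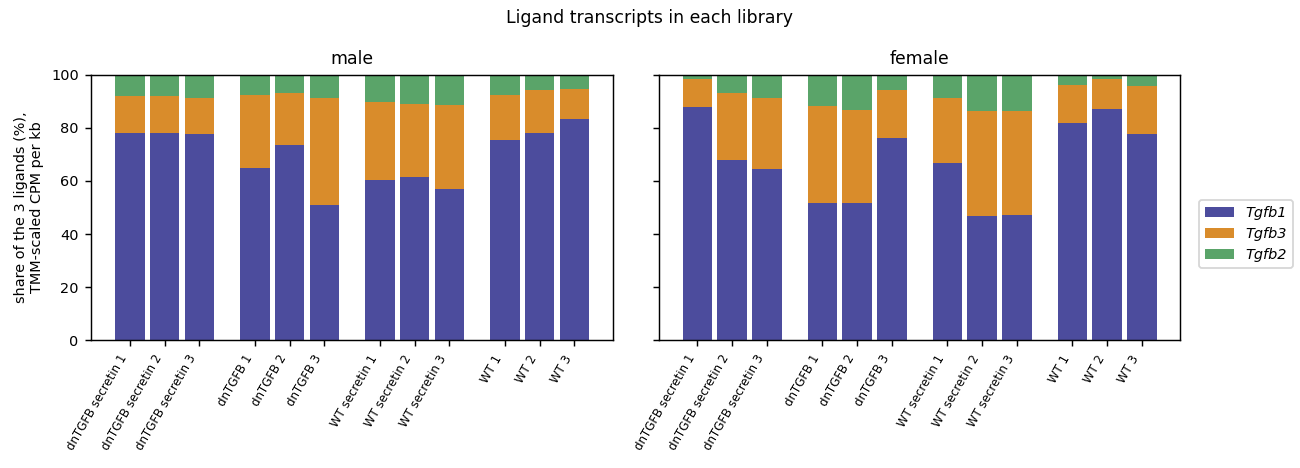
Share of each ligand in the sum of Tgfb1, Tgfb2 and Tgfb3 (y axis, percent of TMM-scaled CPM per kb) in each library, male on the left and female on the right. Bars are single libraries; male WT secretin libraries hold 27.27 to 31.66% Tgfb3, and female WT secretin 2 and 3 and dnTGFB 1 and 2 show a lower Tgfb1 share than the other female libraries.

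Among the receptors, Tgfbr1, the signalling type I kinase, was the member called for secretin within the dnTGFB genotype. Male dnTGFB secretin libraries had 32.86, 33.63 and 35.47 CPM, against 24.81, 23.72 and 11.75 CPM in male dnTGFB libraries. Male WT secretin libraries had 39.74, 39.01 and 44.56 CPM, against 31.15, 27.21 and 27.96 CPM in male WT libraries. The treated groups lay above their untreated groups without overlap in both genotypes. The dnTGFB difference was 0.70 ± 0.21 (adjusted p = 0.03541) and 0.49 ± 0.10 (adjusted p = 0.0001894) without the 2 libraries that stand apart, and the WT difference was 0.51 ± 0.20 (adjusted p = 0.1746) and 0.57 ± 0.09 (adjusted p = 9.424e-06). The dnTGFB call was lost in a fit of only the 6 libraries compared (0.72, adjusted p = 0.2027), with a replicate block (0.73, adjusted p = 0.05978) and on leaving out male WT library 2 or 3 or any of the 6 secretin libraries (adjusted p 0.05013 to 0.1044), and library totals gave a larger difference (1.61, adjusted p = 0.0005062). The interaction was 0.19 ± 0.29 (adjusted p = 0.6755), so a difference between the genotypes in the secretin effect was not shown. Pkd2, the polycystin-2 channel of the primary cilium, and Pdgfd, a growth factor, were most like Tgfbr1 (r = 0.95 each).

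Tgfbr2, the ligand-binding type II kinase, was measured at 108.45, 109.35 and 119.43 CPM in male dnTGFB secretin and 122.67, 125.72 and 37.00 CPM in male dnTGFB libraries. It stood at 168.01, 172.43 and 166.85 CPM in male WT secretin and 130.34, 137.67 and 137.70 CPM in male WT libraries. WT secretin was again the highest male group, and apart from library 3 the dnTGFB libraries lay just below WT. No comparison was called with all libraries. Without the 2 libraries, dnTGFB against WT was -0.15 ± 0.06 (adjusted p = 0.03375), WT secretin against WT 0.30 ± 0.05 (adjusted p = 5.349e-05) and dnTGFB secretin against WT secretin -0.59 ± 0.05 (adjusted p = 1.499e-10). The direction within dnTGFB turned on leaving them out, from an uncalled 0.22 ± 0.33 with all libraries to -0.14 ± 0.05 (adjusted p = 0.03421). It also depended on the scaling. As CPM of library totals, Tgfbr2 was at 134.69, 136.21 and 149.48 in male dnTGFB secretin and 69.82, 71.41 and 44.08 in male dnTGFB libraries. The summed level of 9 T cell markers was 5.1 to 69.2 CPM over the 24 libraries, and the part of T cell RNA in Tgfbr2 was not tested. Card10 (r = 0.97) and Lrp5 (r = 0.96), a Wnt co-receptor, were most like it.

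Tgfbr3, the co-receptor betaglycan, differed in the opposite sense in the treated groups. Male dnTGFB secretin libraries had 105.96, 107.94 and 106.86 CPM and male dnTGFB libraries 83.09, 64.48 and 15.86 CPM. The WT secretin group had 77.54, 74.15 and 69.86 CPM and male WT libraries 89.85, 97.52 and 94.11 CPM. Treated dnTGFB libraries were above all untreated male libraries, and treated WT libraries below all male WT libraries. With all libraries no difference passed (dnTGFB secretin against dnTGFB 0.94 ± 0.39, adjusted p = 0.1051; interaction 1.28 ± 0.55, adjusted p = 0.1264). Without the 2 libraries the values were 0.54 ± 0.08 (adjusted p = 4.098e-06) for dnTGFB secretin against dnTGFB, -0.38 ± 0.07 (adjusted p = 0.0002168) for WT secretin against WT and 0.92 ± 0.11 (adjusted p = 1.558e-07) for the interaction. The genes most like it were Pald1 (r = 0.96) and Mcam (r = 0.94), an adhesion molecule of vessels.

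Smad2 and Smad3, the receptor-activated Smads, lay on opposite sides of the untreated level in secretin-treated WT libraries. Smad2 was at 34.94, 32.44 and 32.12 CPM in male dnTGFB secretin and 27.70, 30.48 and 27.60 CPM in male dnTGFB libraries. It was at 21.02, 27.53 and 25.46 CPM in male WT secretin and 30.22, 33.43 and 37.02 CPM in male WT libraries. Treated libraries were above untreated in dnTGFB and below untreated in WT, without overlap. The interaction was called for Smad2 (0.65 ± 0.20, adjusted p = 0.04442), but not with a replicate block (0.66, adjusted p = 0.06859), without the filter on low counts (adjusted p = 0.1015), with library totals (adjusted p = 0.07811) or with DESeq2's size factors (adjusted p = 0.05448), and leaving out any of 9 libraries lost it too. Without the 2 libraries it was 0.71 ± 0.15 (adjusted p = 0.0004208).

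Smad3 ranged from 32.69 to 39.09 CPM in male dnTGFB secretin, 27.93 to 32.43 in male dnTGFB, 43.18 to 46.48 in male WT secretin and 30.17 to 35.86 CPM in male WT libraries. WT secretin libraries were the highest group, at 0.44 ± 0.12 above WT (adjusted p = 0.06429), and 0.37 ± 0.09 (adjusted p = 0.001691) without the 2 libraries. Per kb, the ratio of Smad2 to Smad3 was 1.396 to 1.55 in male dnTGFB secretin, 1.468 to 1.549 in male dnTGFB, 0.7061 to 0.9955 in male WT secretin and 1.456 to 1.727 in male WT libraries. Only in male WT secretin libraries was Smad3 the higher of the pair among male groups. Bzw1 (r = 0.87) and Pdcd10 (r = 0.83) were most like Smad2, and Wiz and Parva (r = 0.85 each) most like Smad3.

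Smad4, the common mediator, hardly differed between the WT groups: it was at 54.17 to 57.21 CPM in male WT secretin and 52.36 to 58.21 CPM in male WT libraries, a difference of 0.02 ± 0.15 (adjusted p = 0.9553). It was at 40.86 to 45.02 CPM in male dnTGFB secretin and 31.71 to 50.21 CPM in male dnTGFB libraries. Both dnTGFB groups lay below the WT group of the same treatment without overlap, at -0.38 ± 0.15 (adjusted p = 0.1303) with secretin and -0.37 ± 0.15 (adjusted p = 0.1167) without it. Leaving out the 2 libraries gave -0.37 ± 0.07 (adjusted p = 5.954e-05) and -0.26 ± 0.09 (adjusted p = 0.01732). Nde1 (r = 0.92) and Snap23 (r = 0.91) were most like it.

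Smad7, the inhibitory Smad, was at 60.94, 61.62 and 59.64 CPM in male dnTGFB secretin and 72.70, 74.30 and 18.21 CPM in male dnTGFB libraries. Male WT secretin libraries had 71.31, 71.30 and 79.78 CPM and male WT libraries 80.56, 81.72 and 88.63 CPM. WT was the highest group, and no difference was called with all libraries. Without the 2 libraries Smad7 was lower in dnTGFB than in WT (-0.22 ± 0.07, adjusted p = 0.02008), in WT secretin than in WT (-0.20 ± 0.06, adjusted p = 0.01522) and in dnTGFB secretin than in dnTGFB (-0.27 ± 0.07, adjusted p = 0.002272). The last of these was 0.10 ± 0.36, uncalled and of the other sign, with all libraries, and -0.27 with only male dnTGFB library 3 left out. Its direction depended on the scaling too. As CPM of library totals, Smad7 was at 75.68, 76.75 and 74.64 in male dnTGFB secretin and 41.38, 42.2 and 21.69 in male dnTGFB libraries. Slc43a3 and Pla2r1 (r = 0.98 each) were most like Smad7.

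**Figure D3:**
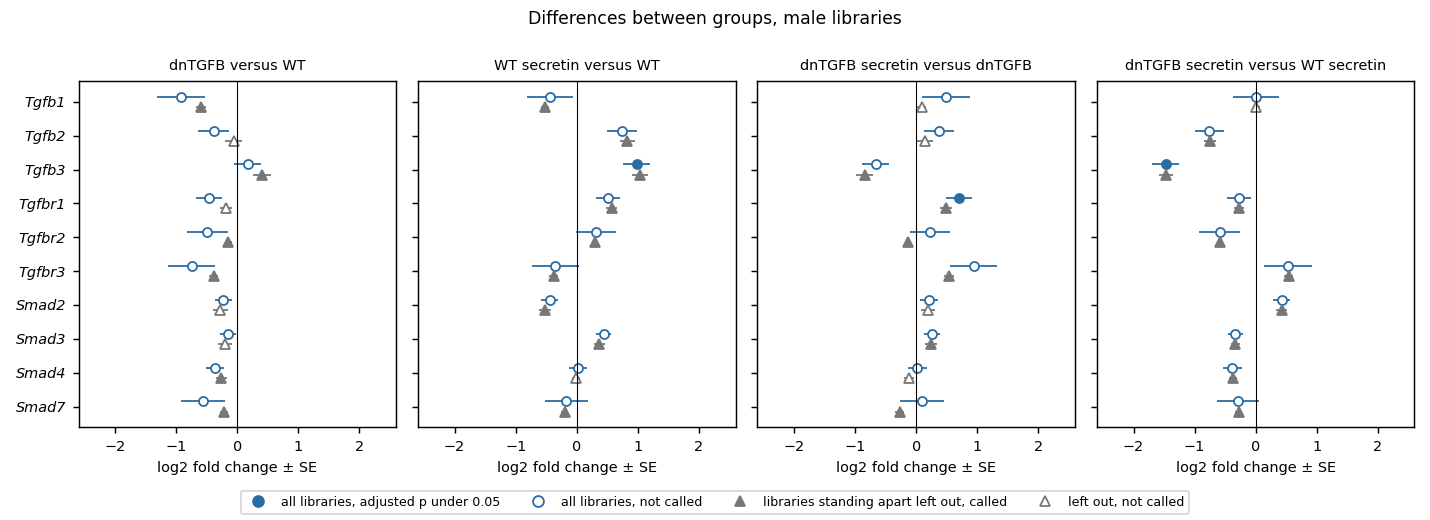
Log2 fold changes (x axis, ± SE) of the 10 genes in the 4 male comparisons, with all 12 libraries (blue circles) and without WT 1 and dnTGFB 3 (grey triangles). Filled symbols have an adjusted p under 0.05; with all libraries these are Tgfb3 in WT secretin versus WT and in dnTGFB secretin versus WT secretin, and Tgfbr1 in dnTGFB secretin versus dnTGFB.

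The members called in males are set beside the share of all genes called. No member was called in dnTGFB against WT, where 17% of 18777 genes were, 3 members had an unadjusted p under 0.05, and DESeq2 called 0. In WT secretin against WT 1 of 10 members was called against 6.22% of genes, in dnTGFB secretin against dnTGFB 1 against 22.6%, in dnTGFB secretin against WT secretin 1 against 12.9%, and in the interaction 2 against 15.6%. The median log2 fold change of the members in dnTGFB against WT was -0.43, where that of all genes was 0.01, and -0.21 without the 2 libraries, where that of all genes was -0.04. Groups did not overlap for 6 of 10 members in dnTGFB against WT (32.7% of genes), 9 in WT secretin against WT (43.4%), 4 in dnTGFB secretin against dnTGFB (41.1%) and 9 in dnTGFB secretin against WT secretin (62.5%).

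The spread left without male WT library 1 and male dnTGFB library 3 may be technical, which was not tested. Among the libraries kept, heart muscle markers still ran from 39.0 to 975.1 CPM in male WT secretin. Without the 2 libraries, between 40.5% and 50.9% of genes were called in these comparisons. Members called there were 1 higher and 5 lower in dnTGFB against WT (22.3% of genes higher and 25.1% lower, 47.4% in all), 5 higher and 4 lower in WT secretin against WT (19.9% and 20.6%, 40.5% in all), 3 higher and 3 lower in dnTGFB secretin against dnTGFB (23.1% and 23.5%, 46.6% in all), 2 higher and 7 lower in dnTGFB secretin against WT secretin (25.1% and 25.7%, 50.9% in all), and 3 higher and 3 lower in the interaction (25.1% and 23.8%, 48.9% in all).

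The other genes of the pathway are described by the number called in each direction, beside the share of all genes called that way. Their calls were not followed through the fits with single libraries left out. In male WT secretin against WT, 1168 genes were called with all libraries. Leaving out WT library 2 or 3 or any WT secretin library gave 332 to 383. With all male libraries, 8.55% of genes were called higher and 8.46% lower in dnTGFB against WT, 3.55% and 2.67% in WT secretin against WT, 10.1% and 12.4% in dnTGFB secretin against dnTGFB, 5.75% and 7.19% in dnTGFB secretin against WT secretin, and 8.1% and 7.51% in the interaction.

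Of 17 genes listed under latent TGF-beta binding and activation, 6 rose and 0 fell in male WT secretin against WT libraries (median 0.37). In dnTGFB secretin against WT secretin libraries 2 rose and 6 fell (median -0.59). With male WT 1 and dnTGFB 3 left out the counts were 11 higher and 5 lower (median 0.67) and 4 higher and 10 lower (median -0.58). Ltbp2, a microfibril protein of the latent TGF-beta binding protein family, was at 7.53, 6.94 and 7.11 CPM in male dnTGFB secretin, 36.85, 42.15 and 35.85 CPM in male WT secretin and 16.37, 8.73 and 8.58 CPM in male WT libraries. It was lower in dnTGFB secretin than in WT secretin (-2.41 ± 0.44, adjusted p = 0.005403) and higher in WT secretin than in WT (1.77 ± 0.43, adjusted p = 0.03452). Fbn1, the fibrillin of those microfibrils, differed by -1.85 ± 0.31 and 1.64 ± 0.31 in the same order, and Ltbp3, which tethers latent ligand, by -1.25 ± 0.22 and 1.26 ± 0.22.

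Itgb8, the beta chain of the alpha-v beta-8 integrin that activates latent TGF-beta, was called for secretin in both genotypes. It was at 16.84, 18.91 and 15.51 CPM in male dnTGFB secretin against 7.16, 5.74 and 9.40 CPM in male dnTGFB libraries (1.27 ± 0.18, adjusted p = 0.001242). In WT secretin libraries it was at 36.89, 33.86 and 34.22 CPM, against 12.43, 12.82 and 12.57 CPM in male WT libraries (1.47 ± 0.16, adjusted p = 0.0008448). Itgb8 was also lower in male dnTGFB than in male WT libraries (-0.83 ± 0.18, adjusted p = 0.01027). In dnTGFB secretin against dnTGFB, 3 of the 17 rose and 0 fell, Itgb6 (1.15 ± 0.28) and Itgb3 (1.11 ± 0.36) being the others. In dnTGFB against WT 0 rose and 2 fell, the other being Ltbp4 (-1.36 ± 0.40). The balance changed without the 2 libraries that stand apart: 5 were then higher and 9 lower in dnTGFB secretin against dnTGFB (median -0.18), with Ltbp2 (-1.56 ± 0.13), Fbn1 (-1.16 ± 0.11) and Thbs1 (-1.07 ± 0.04) among the lower, and 7 higher and 7 lower in dnTGFB against WT (median 0.11).

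TGF-beta response genes, 22 that include Smad7 itself, gave 4 higher and 2 lower in male WT secretin against WT, and 0 higher and 5 lower in dnTGFB secretin against WT secretin libraries. Without the libraries that stand apart these were 11 higher and 8 lower, and 8 higher and 10 lower. Col1a1, the collagen I alpha 1 chain, was at 120.88, 124.64 and 124.86 CPM in male dnTGFB secretin, 498.32, 494.58 and 499.72 CPM in male WT secretin and 128.32, 71.20 and 69.21 CPM in male WT libraries. It was lower in dnTGFB secretin than in WT secretin (-2.01 ± 0.49, adjusted p = 0.02242) and higher in WT secretin than in WT (2.47 ± 0.50, adjusted p = 0.01618). Col1a2 and Col3a1 rose by 2.27 ± 0.51 and 2.14 ± 0.49 in WT secretin, while Cdkn1a, a cell cycle inhibitor, was lower there (-1.88 ± 0.44). Acta2, the actin of myofibroblasts and smooth muscle, was at 28.15, 29.90 and 25.65 CPM in male dnTGFB secretin against 173.44, 164.78 and 165.80 CPM in male WT secretin libraries (-2.59 ± 0.21, adjusted p = 5.924e-05). Untreated levels were 67.40, 65.41 and 39.94 CPM in male dnTGFB and 97.87, 128.47 and 123.24 CPM in male WT libraries. Acta2 was thus lower in dnTGFB than in WT (adjusted p = 0.00801) and in dnTGFB secretin than in dnTGFB (-1.06 ± 0.20, adjusted p = 0.006585). Col1a1, Col1a2 and Acta2 are also in the stellate cell and fibroblast marker list whose summed levels are given with Tgfb3, so the lists are not independent.

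The direction of this list in male dnTGFB against WT depended on the libraries. With all of them 0 rose and 1 fell (median 0.01), and without male WT library 1 and male dnTGFB library 3 13 rose and 3 fell (median 0.32), among them Fn1 (2.62 ± 0.05), encoding fibronectin, and Timp1 (2.39 ± 0.19), encoding an inhibitor of matrix metalloproteinases. In dnTGFB secretin against dnTGFB libraries the count was 1 higher and 1 lower with all libraries, and 4 higher and 15 lower without the 2, with Fn1 at -1.56 ± 0.05. Hepatocyte markers summed to 13522.9 and 12773.1 CPM in male dnTGFB libraries 1 and 2 and 3318.8 and 3268.7 CPM in male WT libraries 2 and 3. They summed to 4359.7 to 4395.2 CPM in male dnTGFB secretin libraries. The part of hepatocyte RNA in these differences was not tested.

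Of 21 co-receptors, other Smads and regulators, 2 rose and 1 fell in male dnTGFB against WT, 1 rose and 0 fell in WT secretin against WT, 3 rose and 3 fell in dnTGFB secretin against dnTGFB, and 0 rose and 1 fell in dnTGFB secretin against WT secretin libraries. Leaving out both libraries that stand apart, the counts in these comparisons were 5 higher and 8 lower, 3 and 8, 6 and 7, and 8 and 8. Bambi, a decoy receptor that lacks a kinase domain, was at 33.95, 37.21 and 39.33 CPM in male dnTGFB secretin, 24.12, 20.29 and 10.57 in male dnTGFB and 34.77, 43.44 and 40.81 CPM in male WT libraries. It was higher in dnTGFB secretin than in dnTGFB (0.95 ± 0.22, adjusted p = 0.01753) and lower in dnTGFB than in WT (-1.06 ± 0.23, adjusted p = 0.01084). Nedd4l, a ubiquitin ligase, rose in WT secretin libraries (0.56 ± 0.13, adjusted p = 0.02414).

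The activin and BMP branch had 20 tested genes in males, of which 2 rose and 5 fell in dnTGFB against WT, 2 rose and 1 fell in WT secretin against WT, 3 rose and 1 fell in dnTGFB secretin against dnTGFB, and 1 rose and 3 fell in dnTGFB secretin against WT secretin libraries. Without the 2 libraries that stand apart the counts were 5 higher and 8 lower, 7 and 8, 8 and 5, and 7 and 5. Bmp6, a BMP ligand of liver endothelium that controls hepcidin, was at 39.93, 31.22 and 9.98 CPM in male dnTGFB against 88.21, 135.33 and 133.07 CPM in male WT libraries (-2.07 ± 0.36, adjusted p = 0.005286). Its secretin-treated levels were 25.46, 20.76 and 22.21 CPM in male dnTGFB secretin against 82.85, 89.75 and 96.78 CPM in male WT secretin libraries (-1.98 ± 0.35, adjusted p = 0.004858). Bmpr2, the BMP type II receptor, was lower in dnTGFB than in WT (-0.88 ± 0.18) and higher in dnTGFB secretin than in dnTGFB (0.73 ± 0.18). Id1, a BMP target, was lower in dnTGFB than in WT (-1.05 ± 0.28). As CPM of library totals, the endothelial markers summed to 793.4 to 1930.7 in male dnTGFB against 3078.5 to 5978.1 in male WT libraries. That scale is not the TMM scale of Bmp6. In male dnTGFB libraries 1 and 2 Tgfb1, for example, was at 59.77 and 67.04 CPM of library totals and 105.02 and 118.03 TMM-scaled CPM. The part of endothelial RNA in Bmp6, Bmpr2 and Id1 was not tested.

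The secretin effect differed between the genotypes for 20 of 76 other pathway genes in males, where 15.6% of all genes were called. Of latent TGF-beta genes 2 were higher and 3 lower in the interaction, of regulators 3 and 3, of response genes 0 and 5, and of the activin and BMP branch 4 and 1, Ltbp2 being in both the latent and the response list. Ltbp2 (-2.97 ± 0.61), Fbn1 (-2.52 ± 0.44), Col1a1 (-2.70 ± 0.68), Col3a1 (-2.48 ± 0.68) and Col1a2 (-2.44 ± 0.70) had the sign of Tgfb3. Itgb3 (2.01 ± 0.51), Itgb6 (1.87 ± 0.39), Bambi (1.34 ± 0.31), Bmpr2 (1.33 ± 0.25) and Id4 (1.64 ± 0.42) had the other sign. All of these interactions share the same 12 libraries.

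In females the 4 pairwise comparisons called no member and no gene at all (0% of 19882 genes by edgeR), although 3626 to 5263 genes had an unadjusted p under 0.05 and DESeq2 called 411 to 2588 genes. The count depended on 1 library: without female WT secretin library 1, 5441 of 21210 genes were called in WT secretin against WT and 5081 in dnTGFB secretin against WT secretin, and 1 and 2 members. That leaves female WT secretin with libraries 2 and 3 only. Both had high heart muscle markers (54034.9 and 62066.8 CPM) and Ddx3y (64.31 and 59.1 CPM), so treatment and these traits cannot be told apart in these calls. Unadjusted p under 0.05 was reached by 1 member in dnTGFB against WT, 2 in WT secretin against WT, 1 in dnTGFB secretin against dnTGFB and 0 in dnTGFB secretin against WT secretin. Libraries within a female group were far apart. Tgfb1 was at 178.76, 112.35 and 102.24 CPM in female dnTGFB secretin and 49.33, 44.44 and 125.03 CPM in female dnTGFB libraries. It was at 107.20, 45.45 and 45.90 CPM in female WT secretin and 148.42, 180.26 and 167.61 CPM in female WT libraries. The 4 lowest values are those of the 4 female libraries with high heart muscle markers. In these 4 libraries Tgfb1 (44.44 to 49.33 CPM), Tgfbr2 (66.87 to 81.7), Smad3 (28.82 to 33.11) and Smad7 (19.13 to 30.15) lay below every one of the other 8 female libraries, where they were at 102.24 to 180.26, 90.53 to 133.12, 33.62 to 43.9 and 46.87 to 66.46 CPM. Endothelial markers, as CPM of library totals and not TMM-scaled, summed to 701.7 to 1034.2 in the 4 and 2737.6 to 4962.1 in the 8. The other 6 members overlapped between these libraries.

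The female secretin by genotype interaction was called for Tgfb1 (2.17 ± 0.66, adjusted p = 0.04794), where 18% of genes were called, 4.03% higher and 13.9% lower. Without the 4 libraries it was 0.76 ± 0.47 (adjusted p = 0.9495), and 0.40 (adjusted p = 0.9924) with female WT library 2 and female dnTGFB secretin library 1 left out too. Both fits leave female WT secretin and female dnTGFB with 1 library each, assumed to vary like the other groups. Tgfb3 was at 14.14, 28.30 and 28.34 CPM in female dnTGFB secretin, 23.53, 20.29 and 19.83 in female dnTGFB, 26.24, 25.95 and 25.80 in female WT secretin and 17.52, 15.68 and 26.20 CPM in female WT libraries. Its differences were 0.39 ± 0.28 (adjusted p = 0.3839) for WT secretin against WT and -0.14 ± 0.28 (adjusted p = 0.7821) for dnTGFB secretin against WT secretin. Tgfb2 was 15.12 to 16.57 CPM in female WT secretin and 4.32 to 10.42 CPM in female WT libraries, without overlap (1.03 ± 0.45, adjusted p = 0.1791). The values 15.12 and 15.33 came from WT secretin libraries 2 and 3, with high heart muscle markers. The value 4.32 came from WT library 2 of the near-identical pair. As CPM of library totals the groups overlapped (9.87 to 23.06 in WT secretin and 4.16 to 11.44 in WT). Groups did not overlap for 2 members in dnTGFB against WT (22.9% of genes), 3 in WT secretin against WT (23.7%), 2 in dnTGFB secretin against dnTGFB (17.6%) and 1 in dnTGFB secretin against WT secretin (14.7%).

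**Figure D4:**
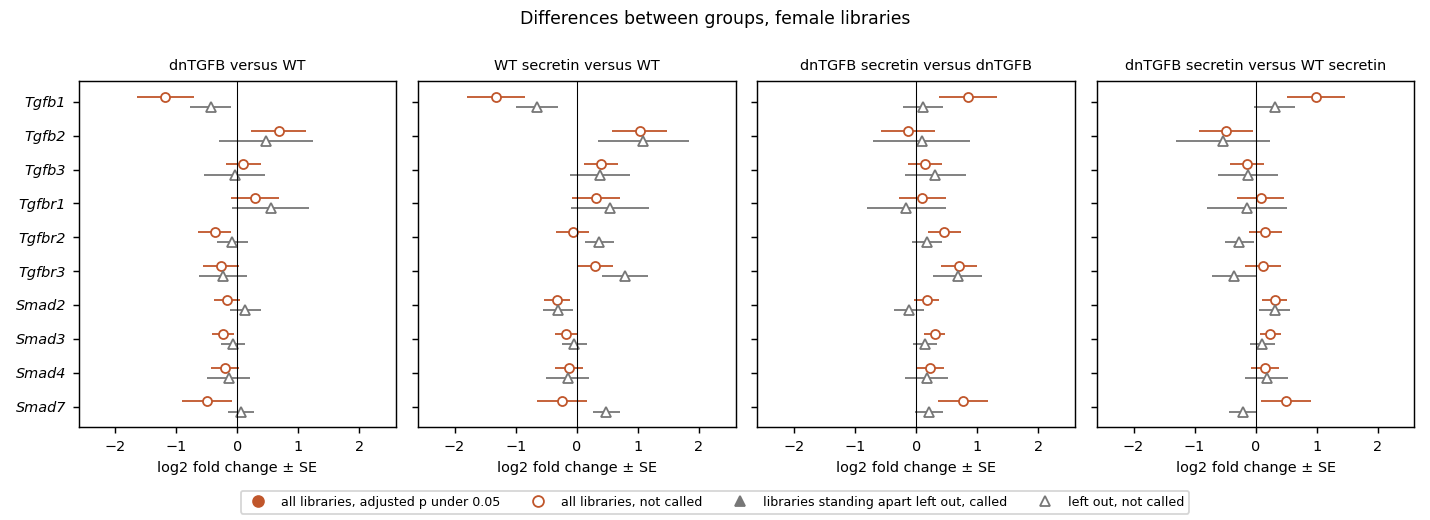
Log2 fold changes (x axis, ± SE) of the 10 genes in the 4 female comparisons, with all 12 libraries (orange circles) and without WT secretin 2 and 3 and dnTGFB 1 and 2 (grey triangles). All symbols are open, since none of the 10 had an adjusted p under 0.05; for Tgfb1 in WT secretin versus WT the value was -0.65 without the 4 libraries and -1.32 with all.

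Other pathway genes gave 0 calls in the 4 female pairwise comparisons by edgeR. In the female interaction 6 of 77 were called: Fn1 was higher (3.02 ± 0.92), and Acta2 (-2.53 ± 0.61), Itgb6 (-4.62 ± 0.99), Itgb5 (-1.76 ± 0.47), Bmpr1a (-2.42 ± 0.63) and Bmpr1b (-4.06 ± 1.15) were lower, and 0 were called without the 4 libraries with high heart muscle markers.

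The sexes as labelled were compared in a fit of all 24 libraries, of which 4 labelled female held Ddx3y and 3 labelled male held Xist, as given above. No member was called in the male minus female difference of dnTGFB against WT (6.86% of 20222 genes, 4.45% higher and 2.42% lower), of WT secretin against WT (0%) or of dnTGFB secretin against dnTGFB (7.75%, 2.44% higher and 5.32% lower). Unadjusted p under 0.05 was reached by 1, 1 and 0 members in that order. For Tgfb3 the male minus female difference was 0.61 ± 0.38 (adjusted p = 0.3438) for WT secretin against WT and -0.75 ± 0.38 (adjusted p = 0.2077) for dnTGFB secretin against dnTGFB. With the libraries that stand apart and the near-identical female pair left out, the second of these was -1.38 ± 0.28 (adjusted p = 0.002329). Female dnTGFB and female WT secretin then have 1 library each, assumed to vary like the other groups, and female WT and female dnTGFB secretin have 2 each, which holds for each call with the pair out. In the same fit Smad7 was called in both secretin differences (-0.69 ± 0.13, adjusted p = 0.001625 in WT and -0.56 ± 0.13, adjusted p = 0.006305 in dnTGFB), Tgfbr3 in that of WT (-1.15 ± 0.26, adjusted p = 0.01102) and Tgfbr1 in dnTGFB against WT (-0.53 ± 0.17, adjusted p = 0.0282). That fit called 22.8%, 13.7% and 22.3% of 21375 genes in the differences of dnTGFB against WT, WT secretin against WT and dnTGFB secretin against dnTGFB.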

How the data were processed

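The authors deposited 1 table of whole-number read counts per gene for each of the 24 libraries. Aligner, counting tool and use of strand: not given in the sources used here. Of 49315 identifiers, 49056 are in GENCODE M21 and 44823 have identical coordinates, so the build is GRCm38 and symbols come from that annotation. Poly(A) RNA was sequenced from 500 ng per library, per the labels' protocols. Counts were tested with edgeR 4.0.16 (limma 3.58.1, R 4.3.3): genes kept by filterByExpr, TMM scaling, robust glmQLFit and glmQLFTest with the 12 libraries of a sex fitted together, or all 24 for differences between the sexes. P-values were adjusted by Benjamini-Hochberg over all genes tested, and called means an adjusted p under 0.05. Each SE was derived from the log2 fold change and the square root of its F value, and is approximate. DESeq2 1.42.0 was an alternative. Scripts were tested on simulated data.

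The 10 members were always named; genes of the 4 other pathway lists were named from up to 4 per list and comparison, those called with the largest change; and for each member the 2 protein-coding genes with the highest Pearson r (log2 CPM, prior count 2, mean of at least 10 CPM, 24 libraries, genes of the pathway lists left out) were named. Members and lists were chosen with earlier results of these data known. Library distance was the chi-square per gene after thinning to 1400000 counts, over genes with at least 10 summed counts. Motif matches were counted in RefSeq promoter windows of GRCm38.p6. The values of 1 gene of the response list are not reported here.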

Additional observations from a re-analysis of the deposited data

Results flagged for a closer look

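In male libraries the effect of secretin on Tgfb3 differed between the genotypes, the dnTGFB effect minus the WT effect being -1.64 on the log2 scale (edgeR adjusted p = 0.007813), with -0.66 in dnTGFB and 0.98 in WT. With library totals in place of TMM the difference between genotypes was -0.97 (adjusted p = 0.07916). The Tgfb3 mean was then higher in male dnTGFB secretin than in male dnTGFB libraries (17.54 against 15.25 CPM), so the direction within dnTGFB depended on the scaling. Smad2 showed a difference of the opposite sign between the genotypes, 0.65 (adjusted p = 0.04442), with 0.21 in dnTGFB and -0.44 in WT. That call was lost with the replicate block (adjusted p = 0.06859), no filter on low counts (0.1015), library totals (0.07811) and DESeq2's size factors (0.05448), and on leaving out any of 9 libraries. Among female libraries the secretin effect on Tgfb1 differed between the genotypes by 2.17 (adjusted p = 0.04794), and by 0.76 (adjusted p = 0.9495) without the 4 libraries with high heart muscle markers. No explanation was tested for any of these differences.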

How the results depend on the processing

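With all libraries, 0, 1, 1 and 1 members were called in male dnTGFB against WT, WT secretin against WT, dnTGFB secretin against dnTGFB and dnTGFB secretin against WT secretin, 2 in the male interaction, 0 in each female pairwise comparison and sex difference, and 1 in the female interaction. DESeq2 called 5, 2 and 5 in the last 3 male comparisons (3118, 6209 and 4700 of 18777 genes), 1 in female WT secretin against WT (2588 of 19882) and 1 in the sex difference of that comparison (1856 of 20222). DESeq2's size factors gave 2 in male dnTGFB secretin against dnTGFB and 1 in the male interaction (4266 and 2943 genes). Library totals, which shifted the median of all genes by -0.44 in male dnTGFB against WT and 0.75 in dnTGFB secretin against dnTGFB, gave 7, 2 and 9 in the first 3 male comparisons (5223, 863 and 7526 of 18777 genes) and 0 in the female interaction, where 0 of 19882 genes were called. No filter on low counts gave 1 in the male and 0 in the female interaction (1858 of 34198 and 2404 of 36403 genes). The replicate block gave 0 in male dnTGFB secretin against dnTGFB (Tgfbr1 adjusted p = 0.05978), 1 in the male and 0 in the female interaction (2869, 1970 and 0 genes). The replicate numbers did not pair the libraries: same-numbered deviations correlated at -0.21 to 0.27 in males and -0.89 to 0.91 in females, and 10 of 36 and 8 of 36 library and group pairs were best with their own number. A fit of only the 6 libraries compared gave 8, 0 and 9 in the last 3 male comparisons (4928 of 17416, 506 of 17461 and 10607 of 17932 genes). Without the libraries that stand apart the male counts were 6, 9, 6 and 9, with 6 in the male and 0 in the female interaction. With the near-identical female pair out too, an alternative chosen after seeing the data, the female interaction gave 0 and the sex differences 1 in dnTGFB against WT, 2 in WT secretin against WT and 2 in dnTGFB secretin against dnTGFB. Leaving out 1 library at a time gave 0 to 2, 0 to 8, 0 to 4 and 1 to 9 in the male comparisons, 1 to 6 in the male interaction, 0 to 1 in female WT secretin against WT, 0 to 2 in female dnTGFB secretin against WT secretin, 0 to 2 in the female interaction, 0 to 1 in the sex difference of WT secretin against WT and 0 elsewhere. The highest male counts came without male dnTGFB library 3 (6642, 5963, 7247, 7680 and, in the interaction, 7324 of 19400 genes) and the highest female ones without female WT secretin library 1 (8171 of 21210 genes in the interaction). The latter leaves only libraries with high heart muscle markers in female WT secretin. Leaving out any male WT secretin or dnTGFB secretin library, or male WT library 2 or 3, gave 0 in WT secretin against WT and in dnTGFB secretin against dnTGFB.

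Among other pathway genes, also counted after seeing the data, calls in the 4 male comparisons were 13, 15, 14 and 17 of 76 with all libraries. The shares of all genes called were 17%, 6.22%, 22.6% and 12.9%. Without the libraries that stand apart they were 53, 57, 55 and 56 of 76, beside 47.4%, 40.5%, 46.6% and 50.9% of all genes. In the male interaction they were 20 and 55 of 76, beside 15.6% and 48.9% of all genes. In the female interaction they were 6 of 77 and 0, also with the pair out. In the sex differences they were 3, 0 and 1 with all libraries, 4, 5 and 4 without those that stand apart, and 30, 27 and 32 with the pair out. Reversed values were Tgfbr2 at -0.14 and Smad7 at -0.27 in male dnTGFB secretin against dnTGFB without the libraries that stand apart, Smad7 at -0.27 there without male dnTGFB library 3 (-0.27 to 0.37 over all single libraries left out), and Smad7 at -0.69 in the sex difference of WT secretin against WT with the pair out. These fits were TMM-scaled. As CPM of library totals, Tgfbr2 and Smad7 were higher in every male dnTGFB secretin library than in every male dnTGFB library. A change of sign between uncalled values was not counted. The causes were not tested. Depth limited male dnTGFB library 3 most, where members had as few as 9 counts.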
